A study of Mus musculus with 12 samples.

Results

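The genes described here are a set of apoptosis and p53 response genes, chosen by name: Bax, Bcl2, Bid, Bcl2l11, Casp8, Fadd, Trp53, Cdkn1a and Atm. Of these 9 genes, 8 were matched among the 545 genes of the raw count table, and all 8 were tested; Bcl2l11 was not analysed here. They were measured in microglia, the resident macrophages of the brain, sorted from the hippocampus of control male Balbc mice at postnatal day 28 (P28, n = 6) and at postnatal day 14 (P14, n = 6). All 12 animals were raised under the control condition and came from different litters. Cells were isolated with a Percoll gradient and flow sorting, and their RNA was measured with the nCounter mouse immune panel, in which a fluorescent barcode is hybridised to each target molecule and the barcodes are then counted, with no sequencing step.

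Apoptosis can start inside the cell or at its surface. In the intrinsic route, Bax opens pores in the outer mitochondrial membrane, and Bcl2 restrains it. In the extrinsic route, death receptors recruit the adaptor Fadd, which brings caspase 8 together and activates it; caspase 8 can cleave Bid, which then acts on Bax and so joins the routes. The kinase Atm senses DNA breaks and activates p53, the product of Trp53, a transcription factor whose known targets include Cdkn1a, encoding the cell cycle inhibitor p21, and Bax. Microglia multiply in the early postnatal mouse brain, and their number is then trimmed in part by apoptosis.

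Because Bax and Cdkn1a are both known p53 targets, the bases upstream of their start sites are shown with those of Trp53 itself. The stretches are from RefSeq, build GRCm38.p6, 5′ to 3′ on the gene's strand, with each match to the p53 half-site in capitals. They lie at chr7:45467055-45467134 on the minus strand (Bax), chr17:29090871-29090972 on the plus strand (Cdkn1a) and chr11:69580249-69580328 on the plus strand (Trp53).
Bax: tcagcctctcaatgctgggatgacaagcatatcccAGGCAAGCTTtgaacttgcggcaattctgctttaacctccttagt
Cdkn1a: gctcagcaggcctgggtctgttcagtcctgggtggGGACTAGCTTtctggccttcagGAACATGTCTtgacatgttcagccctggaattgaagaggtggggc
Trp53: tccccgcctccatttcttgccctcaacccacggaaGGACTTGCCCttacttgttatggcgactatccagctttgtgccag
The p53 half-site reads the same on both strands, and it was searched in the 250 bases before each start. Of 9 such windows for the 8 genes (Cdkn1a has 2), 3 held a match, and 7.13% of all 32851 windows did. The matches begin 201 bases before the start of Bax and 75 bases before that of Trp53. For Cdkn1a they begin 73 and 51 bases before 1 of its 2 starts, and its other window held no match. These are matches of letters and say nothing of binding. Other motifs were searched on both strands: the GC box (GGGCGG) was in 6 of the 9 windows and in 32.7% of all windows, the CCAAT box (CCAAT) in 3 and in 33.8%, and the TATA box (TATAAA) in 1 and in 12.4%.

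Levels are given as scaled counts, raw counts divided by a lane factor from 6 reference genes, and a gene's level is compared between ages, never with another gene's. A log2 fold change sets P28 over P14 and is followed by the SE of the edgeR quasi-likelihood fit; adjusted p-values cover all 366 genes that were often enough above background to be tested. Raw counts of the 545 genes summed to 1025196 to 1534665 in P28 samples, against 356398 to 1316430 in P14 samples. The summed counts of the positive-control probes did not overlap between the ages, at 36530 to 41574 in P28 lanes against 14924 to 20649 in P14 lanes. Their part in the results was not tested, but when these probes set the scale, the median log2 fold change over the 366 genes was -0.74, against 0.0026 with the reference genes. P14 samples 4 and 5 lay together outside the range of the other 4 P14 samples in 220 of the 366 genes (60.1%), and results are therefore also given without them, an alternative chosen with earlier results known.

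Bax was lower in P28 microglia than in P14 microglia, and it was the 1 member of the 8 that passed the test. The other members, Bcl2, Bid, Casp8, Fadd, Trp53, Cdkn1a and Atm, did not pass. Of the 366 genes tested, 30.6% passed, 13.9% as lower and 16.7% as higher at P28, so that 1 of 8 is below the panel's share. The median log2 fold change of the 8 genes was -0.048, beside 0.0026 for all genes tested. Without P14 samples 4 and 5, Atm also passed as lower and Trp53 as higher, giving 2 lower and 1 higher of the 8; the shares of all genes were then 24.6% and 18.6%. With positive controls alone Bax, Atm and Cdkn1a passed as lower, 3 of the 8, where 34.7% of all genes did. With total counts 2 of the 8 passed, Bax and Atm, where 40.2% of all genes passed in either direction, and limma on the authors' values called Bax and Fadd, where 34.2% passed.

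**Figure D1:**
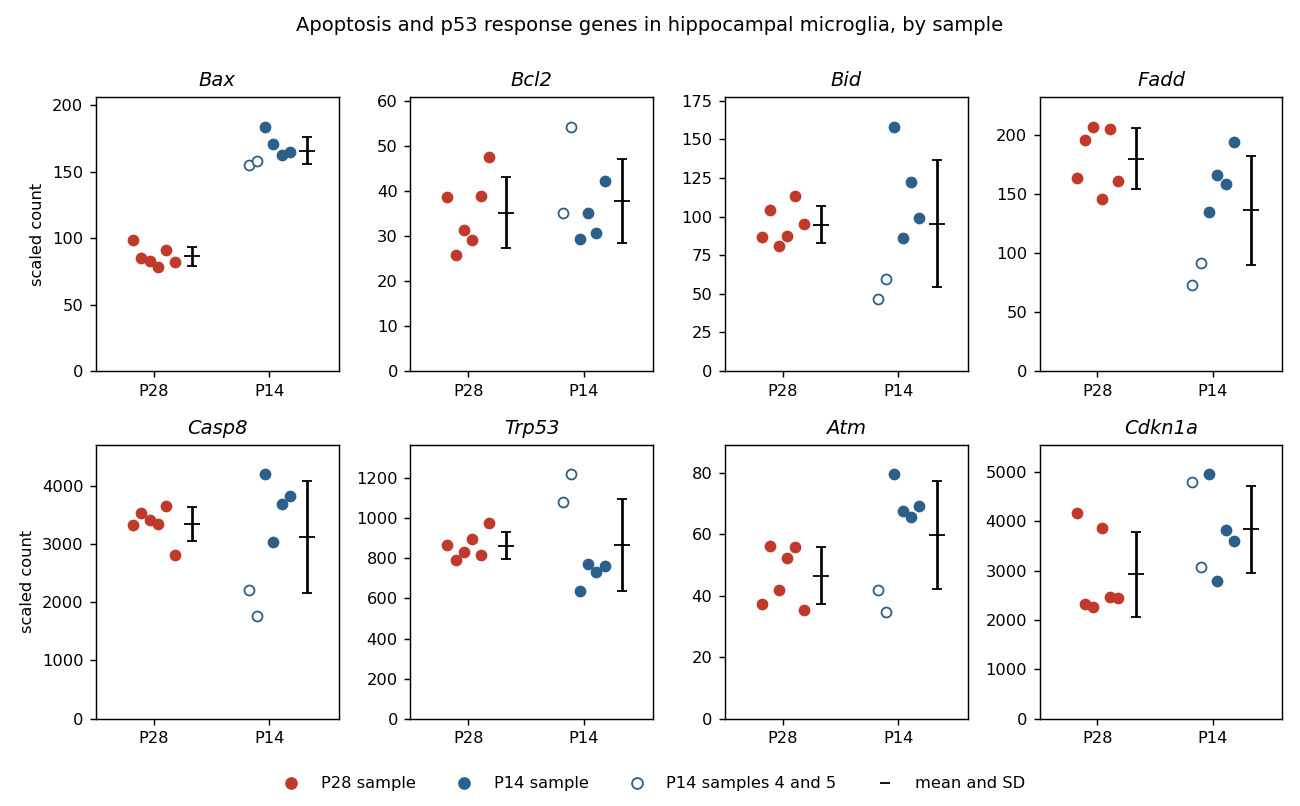
Scaled counts (vertical axes, each starting at 0) of the 8 genes in every sample, with P28 in red and P14 in blue; open points are P14 samples 4 and 5, and bars are the mean and SD of 6 samples. Bax is the gene whose ages do not overlap, and the open points lie below the filled P14 points for Bax, Bid, Fadd, Casp8 and Atm and above them for Trp53.

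Bax, the pore former, had 78.1, 82.0, 83.0, 85.1, 91.5 and 98.4 scaled counts in P28 samples, against 155, 158, 163, 165, 171 and 184 in P14 samples. The highest P28 sample lay far below the lowest P14 sample, a lack of overlap in this direction found in 7.92% of the genes tested. The means were 86.3 ± 7.35 at P28 and 166 ± 10.4 at P14 (SD, n = 6 each), a log2 fold change of -0.94 ± 0.11 (0.520-fold, adjusted p = 1.46e-05). Bax was also the steadiest P14 member, with a coefficient of variation of 6.28% where the other 7 had 23.1% to 43.0%. Its fall held in all 27 alternatives, which ranged in log2 fold change from -1.67 with positive controls alone to -0.81 with limma at a pseudocount of 20. Among them, an FDR of 0.10 on the same fit could not fail once 0.05 was passed. The authors' deposited table gives Bax a fold of 0.57.

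Bcl2, the restraining partner, had 25.7, 29.2, 31.5, 38.8, 38.9 and 47.6 scaled counts in P28 samples, against 29.3, 30.8, 35.1, 35.2, 42.3 and 54.4 in P14 samples. The ages overlapped over most of their range. Its log2 fold change was -0.064 ± 0.18 (95% interval -0.45 to 0.33, adjusted p = 0.824). Bcl2 was the dimmest member relative to background: its raw counts were 22 to 54 where lane thresholds were 12.9 to 33.4, and P28 sample 134 had 23 raw counts, under its threshold of 25.7.

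Bid, the link between the routes, had 81.1, 86.9, 87.6, 95.2, 104 and 113 scaled counts in P28 samples. In P14 samples it had 46.9, 59.4, 86.4, 99.2, 122 and 158. The P28 samples all fell inside the wide P14 range, whose ends were samples 4 and 16. Its coefficient of variation was 12.8% at P28 and 43.0% at P14, and its log2 fold change was -0.033 ± 0.24 (95% interval -0.55 to 0.48, adjusted p = 0.944).

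Of the extrinsic members, Fadd had 146, 161, 164, 196, 205 and 207 scaled counts in P28 samples, against 73.0, 91.5, 135, 158, 166 and 194 in P14 samples. Its means were 179.7 ± 26.0 at P28 and 136 ± 46.2 at P14 (SD, n = 6 each), with a log2 fold change of 0.39 ± 0.21 that did not pass (95% interval -0.073 to 0.85, adjusted p = 0.184). The lowest P14 values were those of samples 4 and 5, and without them the log2 fold change was 0.14 ± 0.15 (adjusted p = 0.464). The authors' deposited table gives Fadd a fold of 1.45 with a p-value of 0.0179, and limma on the authors' values gave a log2 fold change of 0.59 (adjusted p = 0.0406).

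Casp8, the initiator caspase, had 2809, 3333, 3336, 3416, 3525 and 3649.8 scaled counts in P28 samples. In P14 samples it had 1763, 2204, 3033, 3686, 3824 and 4203. The P28 samples were gathered inside the P14 range, again with samples 5 and 4 at the low end. The log2 fold change was 0.10 ± 0.18 (95% interval -0.30 to 0.50, adjusted p = 0.714), and it was -0.14 ± 0.10 without those samples (adjusted p = 0.292).

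Trp53 had 790.2, 818, 833, 865, 897 and 978 scaled counts in P28 samples, against 637, 734, 763, 772, 1081 and 1222 in P14 samples. The P28 samples lay in the gap between the 4 lower P14 samples and samples 4 and 5, which were the highest of all. With all samples the log2 fold change was -0.0036 ± 0.15 (95% interval -0.33 to 0.32, adjusted p = 0.993). Without samples 4 and 5 the P14 mean was 726 ± 61.7 (SD, n = 4), every P28 sample was above every P14 sample (as in 16.4% of the genes tested), and Trp53 passed as higher (0.25 ± 0.092, adjusted p = 0.0441).

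Atm, the kinase upstream of p53, had 35.4, 37.3, 42.0, 52.1, 55.9 and 56.0 scaled counts in P28 samples, against 34.6, 41.7, 65.5, 67.5, 69.0 and 79.5 in P14 samples. Samples 5 and 4 were the low P14 values, and all other P14 samples exceeded all P28 samples, as in 15.0% of the genes tested. The log2 fold change was -0.39 ± 0.20 with all samples (95% interval -0.82 to 0.034, adjusted p = 0.142) and -0.60 ± 0.16 without samples 4 and 5 (adjusted p = 0.00847). In P14 sample 5 the raw Atm count was 14, close to the lane threshold of 12.9.

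Cdkn1a, encoding p21, had 2254, 2327, 2452, 2453, 3869 and 4163 scaled counts in P28 samples, against 2783, 3062, 3600.1, 3813, 4790.2 and 4955 in P14 samples. At P28 the samples fell apart into 4 low ones and 2 high ones, samples 119 and 118. The log2 fold change was -0.39 ± 0.20 (95% interval -0.81 to 0.025, adjusted p = 0.135), and -0.37 ± 0.21 without P14 samples 4 and 5 (adjusted p = 0.167). The same P28 samples 119 and 118 had the highest levels of Mbp, the oligodendrocyte gene of myelin basic protein, at 724 and 1091 scaled counts where the other P28 samples had 189 to 325. They also had the highest levels of Nfkbiz, an atypical inhibitor of NF-kB, at 13787 and 13860 scaled counts where the other P28 samples had 8057 to 10641. At P14, sample 16 had the most Cdkn1a but the least Mbp (126), while samples 4 and 5 had the most Mbp (272 each). Nfkbiz at P14 was highest in samples 4 and 16 (7969 and 7879), the P14 samples with the most Cdkn1a. Of 365 genes, Nfkbiz was the one that correlated best with Cdkn1a once age means were removed (Pearson r = 0.93). Its sharing of the highest samples follows from that choice and is no separate observation. The part of Mbp or Nfkbiz in the Cdkn1a values was not tested.

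**Figure D2:**
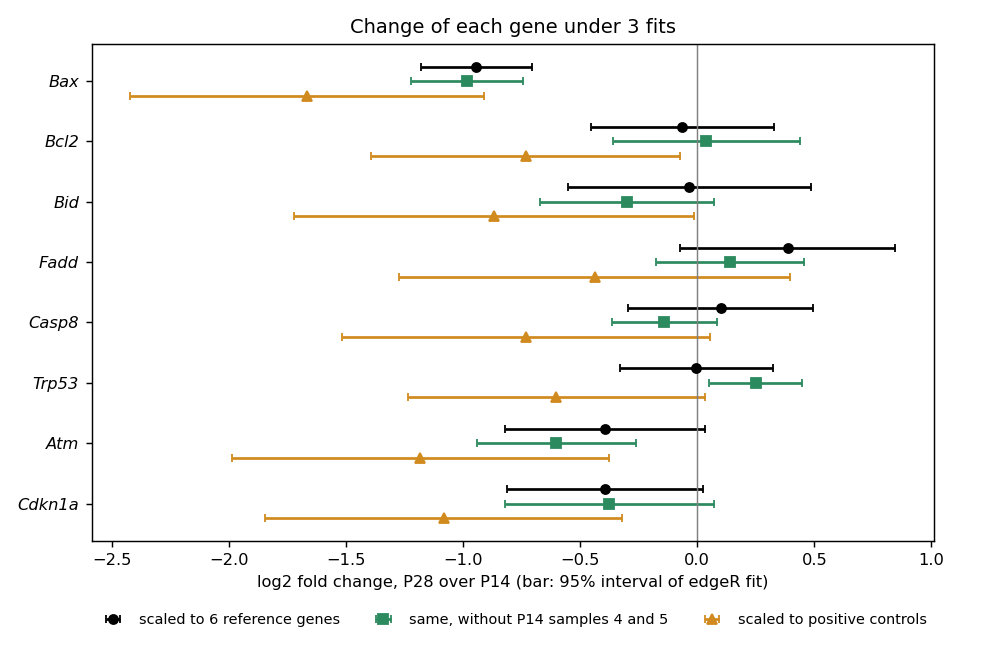
Log2 fold change of each gene, P28 over P14 (horizontal axis), with the 95% interval of the edgeR fit, for all samples scaled to 6 reference genes (black), the same without P14 samples 4 and 5 (green), and all samples scaled to positive controls (orange). Bax lies left of 0 in all 3 fits, Trp53 moves to 0.25 and Atm to -0.60 without samples 4 and 5, and positive controls move all 8 genes to the left.

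Ratios between members of 1 lane do not depend on how lanes are scaled, so 6 of them were compared between the ages by an exact permutation test (two-sided), adjusted over the 6 ratios; with 6 samples against 6 the smallest possible p is 0.00216. They are ratios of barcode counts of different probes, so a change between ages can be read but not a number of molecules, and the fall of Bax was known when they were chosen. Bax over Bcl2 was 1.72 to 3.30 in P28 samples, against 2.91 to 6.29 in P14 samples, with geometric means of 2.49 and 4.48. The ranges overlapped at their edges, and the log2 difference of P28 minus P14 was -0.85 (exact permutation p = 0.00433, adjusted 0.0130). Raw Bcl2 counts lay near the lane thresholds. With background subtracted the log2 difference of Bax over Bcl2 was -0.86 (exact permutation p = 0.0130, adjusted 0.0390). Bax over Trp53 was 0.0839 to 0.114 in P28 samples, against 0.130 to 0.289 in P14 samples, without overlap. Its log2 difference was -0.97 (exact permutation p = 0.00216, the smallest possible, adjusted 0.0130). P14 samples 4 and 5 had the lowest P14 values of Bax over Trp53. Without them the log2 difference was -1.24 for Bax over Trp53 and -1.01 for Bax over Bcl2 (exact permutation p = 0.00952, adjusted 0.0190, for each).

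The other ratios did not pass with all samples. Cdkn1a over Trp53 had a log2 difference of -0.44 (exact permutation p = 0.134, adjusted 0.201) and Casp8 over Fadd one of -0.30 (exact permutation p = 0.0823, adjusted 0.165). Bid over Bcl2 had a log2 difference of 0.20 (exact permutation p = 0.617, adjusted 0.617). Atm over Trp53 had a log2 difference of -0.35 with all samples (exact permutation p = 0.361, adjusted 0.434) and of -0.87 without P14 samples 4 and 5 (exact permutation p = 0.00952, adjusted 0.0190), in which both genes sat apart in opposite directions.

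**Figure D3:**
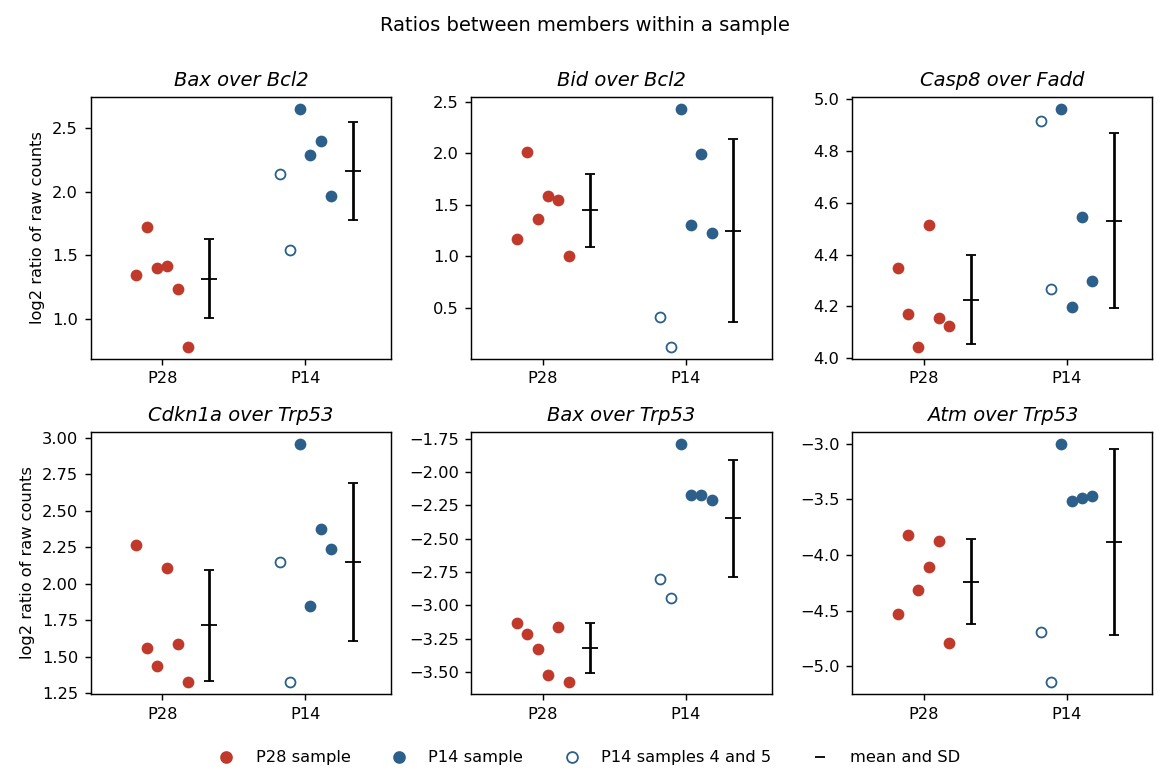
Log2 ratios of raw counts between genes of the same sample (vertical axes), with P28 in red and P14 in blue, P14 samples 4 and 5 as open points, and bars for the mean and SD of 6 samples. Bax over Trp53 separates the ages, and Bax over Bcl2 nearly does. The open points lie below the other 4 P14 samples in Bax over Trp53, Atm over Trp53 and Bid over Bcl2.

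P14 samples 4 and 5 touched most of these genes. Both lay below the other 4 P14 samples for Bax, Bid, Casp8, Fadd and Atm, and above them for Trp53, while Bcl2 and Cdkn1a were mixed. Of all 366 genes, 47.0% had both samples below the others and 13.1% had both above. These samples also had the lowest summed counts, and the part of depth in their values was not tested. For Bax this shift was small beside the difference between the ages: without them its log2 fold change was -0.98 ± 0.11 (adjusted p = 1.51e-05).

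The patterns over samples differed between members. Across the 12 samples, log2 scaled counts of Bax correlated best with those of Cxcr2 (Pearson r = 0.98), a chemokine receptor, and Il2rb (0.98), a cytokine receptor chain, which were both lower at P28. Cxcr2 is also in the list of neutrophil markers used below. Bid correlated best with Lair1 (0.97), an inhibitory receptor, and Abl1 (0.93), a tyrosine kinase. Casp8 correlated best with Tirap (0.99), an adaptor of Toll-like receptors, and Entpd1 (0.99), the ectonucleotidase CD39, which did not pass the age test either. Fadd went with Tapbp (0.90) and Stat5a (0.89), Trp53 with Csf3r (0.90) and Ly86 (0.88), Atm with Jak3 (0.90) and Smad5 (0.87), Cdkn1a with H2-K1 (0.81) and Icam5 (0.78), and Bcl2 with Cx3cr1 (0.67) and Masp2 (0.66). With the mean of each age removed, the best match was Entpd1 for Casp8 (0.99), Lair1 for Bid (0.97), Ly86 for Trp53 (0.95), Nfkbiz for Cdkn1a (0.93), Tirap for Atm (0.93), Plau for Fadd (0.92), Psmb9 for Bax (0.86) and Fn1 for Bcl2 (0.73). Genes of a sample share its lane, depth and scale factor, and each match is the highest of 365, so these values only describe the patterns.

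Around the members, 25 other genes of 6 lists (intrinsic and extrinsic apoptosis, caspases and their adaptors, p53 and DNA damage, survival signals, cytotoxic granules) were tested, and 3 passed as higher and 4 as lower at P28. One of the 4, Gzma, entered the test only through P14 and is given below as a bound. Over all 366 genes, 16.7% passed as higher and 13.9% as lower, 30.6% in either direction. The 7 of 25 is therefore near the panel's share. The split depended on the scaling: it was 9 higher to 2 lower with limma on the authors' values (23 of these genes tested), 8 to 4 with all 14 reference genes, 7 to 3 with the authors' factors, 3 to 7 without P14 samples 4 and 5, 2 to 6 without Polr1b and 0 to 7 with positive controls alone. Over all genes tested, the split was 89 to 26 with limma on the authors' values and 89 to 42 with all 14 reference genes. It was 93 to 36 with the authors' factors and 68 to 90 without P14 samples 4 and 5. Without Polr1b it was 50 to 74, and with positive controls alone 8 to 127. The median log2 fold change of the 25 list genes was 0.12, beside 0.0026 for all genes. In the extrinsic list, 9 genes were tested with Fadd and Casp8 among them, of which 1 rose and 2 fell. Tnfsf10, the death ligand TRAIL, fell to 104 ± 16.7 scaled counts at P28, against 169.6 ± 12.8 at P14 (log2 fold change -0.70 ± 0.13, adjusted p = 0.000945). Traf2, an adaptor of TNF receptors that favours survival, fell to 795 ± 47.8 at P28, against 1200.0 ± 212 at P14 (-0.60 ± 0.12, adjusted p = 0.00217). The ligand Tnf rose to 1221 ± 154 at P28, against 659.8 ± 177 at P14 (0.88 ± 0.17, adjusted p = 0.000945), a call lost with positive controls alone, where it was 0.14. Without P14 samples 4 and 5 the extrinsic list had 1 higher and 4 lower. The death receptor gene Fas and its ligand gene Fasl were above background in 0 of 12 samples.

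The intrinsic list had 3 tested genes, all members, of which Bax fell. Among 5 tested caspases and adaptors, 1 fell: Card9, an adaptor of innate receptors, had 6508 ± 946 scaled counts at P28 and 8667 ± 825 at P14 (-0.41 ± 0.11, adjusted p = 0.0112), a call lost with the authors' factors and in limma on their values. The caspases Casp1 and Casp2 did not pass. Among 6 tested genes of the p53 and DNA damage list, Bax fell and 5 did not pass, including the p53 repressor Bcl6 (0.24 ± 0.11, adjusted p = 0.103) and the kinase Abl1 (-0.043 ± 0.28, adjusted p = 0.936). Bcl6 did pass as higher with limma on the authors' values (0.37, adjusted p = 0.0179), with all 14 reference genes (0.32, adjusted p = 0.0265), with the authors' factors (0.37, adjusted p = 0.0148) and without P28 sample 137 (0.30, adjusted p = 0.0490). Without P14 samples 4 and 5, that list had 1 higher, Trp53, and 2 lower, Bax and Atm.

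Among 10 tested survival genes, 2 rose and 0 fell, while 8 did not pass. Over all 366 genes, 16.7% passed as higher and 13.9% as lower. The genes higher and lower numbered 6 and 0 with all 14 reference genes and with limma on the authors' values, 5 and 0 with the authors' factors, and 0 and 1 with positive controls alone. Il7r, a cytokine receptor chain, rose to 4855 ± 433 scaled counts at P28, against 2211 ± 593 at P14 (1.13 ± 0.17, adjusted p = 0.000139), a call lost with positive controls alone (0.32). Stat5a, a transcription factor of cytokine signalling, rose to 633 ± 42.2 at P28, against 423 ± 134 at P14 (0.57 ± 0.19, adjusted p = 0.0274), and was at -0.25 with positive controls alone. That call was also lost without Polr1b (0.45, adjusted p = 0.0821) and without P28 sample 134 or 135 (0.57 and 0.55, adjusted p = 0.0513 and 0.0579). Of the granule genes, Gzma was above background in 0 of 6 samples at P28 and 5 of 6 at P14. Its P14 mean of 28.0 scaled counts, set against the mean P28 threshold of 25.5, gives a bound of at least 1.10-fold lower at P28. The bound is weak, because that P14 mean lay within the range of the P14 thresholds (13.9 to 32.0 scaled counts). Gzma reached the presence rule through the P14 samples alone, so its test values are not given. The counts of list genes and of NK cell markers that passed still include Gzma. Prf1, encoding perforin, did not pass.

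**Figure D4:**
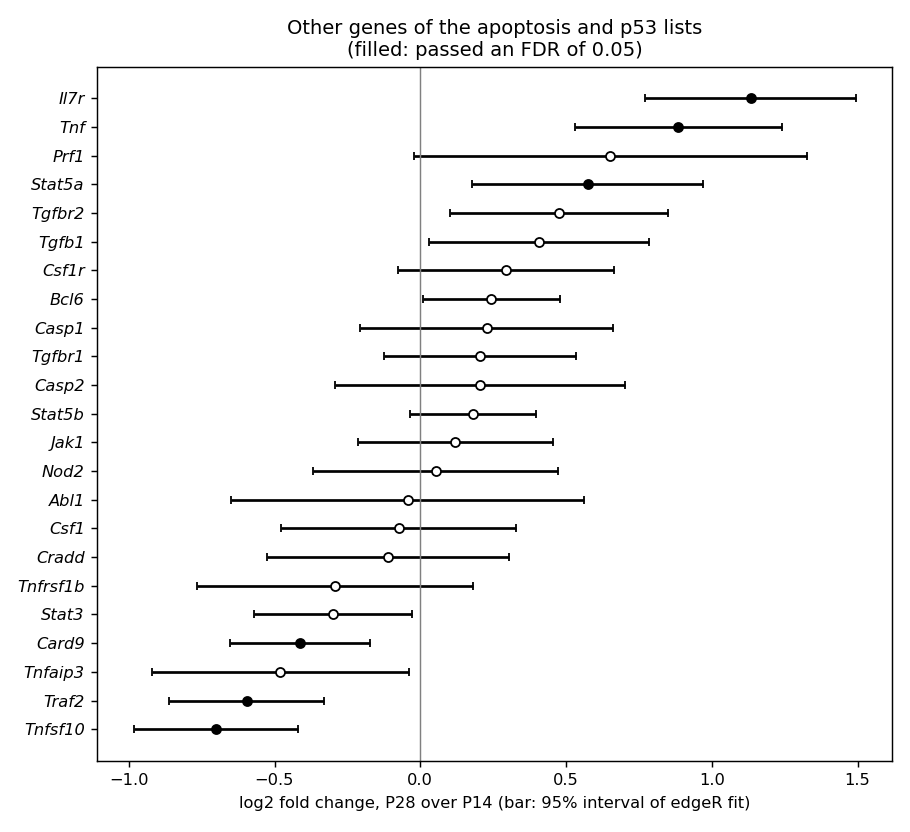
Log2 fold change, P28 over P14 (horizontal axis), of 23 of the 25 list genes that are not members (Gzma, with a bound only, is not drawn), with the 95% interval of the edgeR fit; filled points passed an FDR of 0.05. Il7r, Tnf and Stat5a are filled on the right, and Tnfsf10, Traf2 and Card9 on the left.

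Markers of the sorted cells and of other cells were set beside these results. The 8 microglial markers matched, among them Cx3cr1, Csf1r and Trem2, summed to 208016 to 244769.9 scaled counts at P28, against 198696 to 232826 at P14. Of 9 T cell markers 3 were tested, and all 9 summed to 190 to 262 at P28, against 218 to 257 at P14, with Cd3e and Cd2 above background in no sample. The 6 B cell markers summed to 3458 to 4986 at P28, against 2594 to 4683 at P14, with Pax5 above background in no sample. The 5 NK cell markers summed to 205 to 309 at P28, against 74.2 to 213 at P14, with Gzmb above background in no sample. The 6 neutrophil markers summed to 4190 to 8272 at P28, against 2875 to 8706 at P14, with S100a9 above background in no sample. The 5 markers of monocytes and border macrophages summed to 341 to 456 at P28, against 267 to 459 at P14, and the 4 endothelial and mural markers to 1879 to 2959 at P28, against 2110 to 3362 at P14; each of these genes was above background in some sample. Both genes listed as neuronal, Cx3cl1 and App, summed to 5928 to 9814 at P28, against 3989 to 6796 at P14. How specific either is to neurons was not tested, so their sum is no measure of neuronal RNA. Mbp, the single oligodendrocyte gene, was at 189 to 1091 at P28, against 126 to 272 at P14. Single markers did differ in the age test. The microglial, T cell, B cell, monocyte and border macrophage, endothelial and mural, and neuronal lists each had 1 gene higher and 1 lower at P28. NK cell genes had 1 higher and 2 lower (Gzma among the lower), and Mbp passed as higher. Of 3 neutrophil genes tested, 0 were higher and 1 was lower, Cxcr2 (log2 fold change -1.74). Csf3r of the same list was at 0.17 and did not pass. Cxcr2 was the gene with which Bax correlated best across the 12 samples, but with age means removed the best match was Psmb9. Of all 366 genes tested, 16.7% passed as higher and 13.9% as lower. Sums overlapped between the ages for each of these lists, and their part in the results was not tested. In sorted pools, fewer cells of a type and less RNA per cell cannot be told apart.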

How the data were processed

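Microglial RNA of 12 samples was hybridised to the nCounter mouse immune panel. Per the labels' protocols, 2 ng of RNA were made into cDNA and amplified with 5 rounds of PCR, so copies are not independent molecules and counting error understates the true error. The raw table deposited by the authors gives unscaled barcode counts for each probe. A second deposited table holds values scaled by the authors to positive controls and reference genes (per the labels' design text), treated here as a score, and, per the file headers, the authors' P28/P14 fold, a ratio of means, and their p-value. For the counting software, nothing is given in the sources used here.

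Raw counts were scaled to the geometric mean of the 6 reference genes that the design text lists (Alas1, Gapdh, Oaz1, Polr1b, Sdha, Tbp; the same text gives their number as 5). A gene was tested if its count exceeded the mean plus 2 SD of its lane's 8 negative probes in at least 40% of the samples. Age was tested with edgeR 4.0.16 in R 4.3.3 (glmQLFit, glmQLFTest) over all genes tested, with Benjamini-Hochberg adjustment at an FDR of 0.05. For ratios of raw counts an exact permutation test (two-sided, SciPy 1.17.1) was used. Alternatives used limma 3.58.1, DESeq2 1.42.0, other scalings and filters, and each sample left out in turn. The fitting steps were tested on simulated data. The genes, lists, ratios and alternatives were chosen with earlier results of these data known. Named genes are the members, every other list gene that passed (otherwise up to 3 with the smallest p), and the genes whose scaled counts correlated best with each member. Some genes of the lists are not reported here. No column was left without a sample (0 columns).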

Additional observations from a re-analysis of the deposited data

How the results depend on the processing

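Bax kept its direction and passed in all 27 alternatives, of which an FDR of 0.10 on the same fit could not fail. The number of members that passed was 1 with all samples and 1 whichever single sample was left out; it was 2 with limma on the authors' values and with total counts, and 3 with positive controls alone and without P14 samples 4 and 5 (that sample choice was made after the data were known). Of the 25 other list genes 7 passed, Gzma among them. The number was 12 when all 14 reference genes set the scale and 11 of the 23 that limma tested on the authors' values. With single samples left out it was 6 to 9. Over all genes 112 passed, and 102 to 121 with single samples left out. With all 14 reference genes 131 passed, and with limma on the authors' values 115 of 336.

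Members near 0, and Fadd with positive controls alone, changed sign without passing, except Trp53 where noted. On the authors' values with limma the log2 fold change was 0.032 for Bcl2, 0.21 for Bid and 0.15 for Trp53. With limma on scaled counts Bid was 0.095 and Trp53 0.028 at a pseudocount of 1, and 0.062 and 0.027 at 20. With all 14 reference genes Bcl2 was 0.0087, Bid 0.065 and Trp53 0.037, and with the authors' factors 0.060, 0.10 and 0.11. Casp8 was -0.024 without Polr1b and -0.028 with total counts. With positive controls alone Casp8 was -0.73 and Fadd -0.44, where the median over all genes tested was -0.74. Without P14 samples 4 and 5 Bcl2 was 0.039, Casp8 -0.14 and Trp53 0.25, the last passing, and the ratio of Bid over Bcl2 was -0.29 and of Atm over Trp53 -0.87. With single samples left out, Bcl2 ranged from -0.16 to 0.033, Bid from -0.17 to 0.17, Casp8 from -0.020 to 0.20, Trp53 from -0.079 to 0.12 and Bid over Bcl2 from -0.028 to 0.43. Cdkn1a then ranged from -0.52 to -0.31 (edgeR adjusted p = 0.0501 to 0.270). Atm ranged from -0.49 to -0.30 (edgeR adjusted p = 0.0524 to 0.304), so both came close to passing with some samples left out. The cause of these changes was not tested. With low raw counts, Bcl2 and Atm carry the most counting error. No paired analysis was possible because the ages share no sample numbers.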
